A study of Homo sapiens with 87 samples.

Results

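The ionotropic receptors of glutamate and GABA were followed through a panel of HAP1 cells that had lost single subunits of the BAF chromatin-remodelling complex. The members were chosen by gene symbol, namely the subunits of the AMPA (GRIA), kainate (GRIK), NMDA (GRIN) and delta (GRID) glutamate receptors and of the GABA-A and rho receptors (GABR). The rule found 37 of the 35438 genes that the count tables list. It used names and no measured value, although the family was chosen with earlier results of these data known. HAP1 is a near-haploid human cell line that came from a chronic myeloid leukaemia. The tested groups were 24 knockout clones of 22 genes with 3 libraries each: ARID2 907-9, BRD7 923-10, PBRM1 1135-10, PHF10 2778-11, ARID1A 618-10, ARID1A 618-3, ARID1B 582-7, DPF1 2779-11, DPF2 2777-4, DPF3 2776-1, BRD9 934-10, SMARCA4 2878-4, SMARCA4 2878-6, SMARCA2 4055-12, SMARCC1 2476-12, SMARCC2, SMARCD1 2478-6, SMARCD2 2782-10, SMARCD3 2480-12, BCL7A 2434-10, BCL7B 4278-8, BCL11A 2426-10, BCL11B 2432-10 and ACTB 2471-10. They were set against wild type (WT), which the labels give as 1 clone, C631, also with 3 libraries. A knockout stood as 1 clone for all genes except ARID1A and SMARCA4, so that a difference of the clone and an effect of the knockout cannot be told apart for the others. The labels give no clone number for SMARCC2, which is counted as 1 clone here. Its libraries are numbered among the knockdown libraries, apart from WT and the other clones. The labels name no batch, and a difference of batch cannot be told apart from the SMARCC2 knockout. A second table held 12 libraries in 6 groups of 2: ARID2 knockout with SMARCA4 knockdown, SMARCA4 knockout with ARID2 knockdown, ARID2 knockout with a control knockdown, SMARCA4 knockout with a control knockdown, WT with knockdown of both genes, and WT with the control knockdown. Whether replicate libraries stem from separate cultures is not stated in the labels, so p-values measure the spread between these libraries only.

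AMPA, kainate and NMDA receptors are tetrameric cation channels that open when glutamate binds and carry fast excitation in the brain. GABA-A receptors are pentameric chloride channels that open when GABA binds and carry fast inhibition, and the rho subunits form related channels best known from the retina. BAF (SWI/SNF) uses the energy of ATP to slide nucleosomes, with SMARCA4 or SMARCA2 as its motor. ARID1A, ARID1B and the DPF proteins belong to its canonical form, ARID2, PBRM1, BRD7 and PHF10 to the polybromo form (PBAF) and BRD9 to the non-canonical form, while subunits such as SMARCC1, SMARCC2 and SMARCD1 are shared between forms. HAP1 is no neuronal cell, and the values below are mRNA levels that say nothing of receptor protein or current.

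Promoter windows of 3 members are shown because GRIA2, GRIK2 and GABRQ changed in the most clones among the members that have an entry in the RefSeq promoter table (build GRCh38.p14). Each window runs from 250 bases before to 50 bases after an annotated start, 5′ to 3′ on the plus strand, which is the gene's strand in each case. Capitals mark CG pairs.

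GRIA2, chr4:157220369-157220668: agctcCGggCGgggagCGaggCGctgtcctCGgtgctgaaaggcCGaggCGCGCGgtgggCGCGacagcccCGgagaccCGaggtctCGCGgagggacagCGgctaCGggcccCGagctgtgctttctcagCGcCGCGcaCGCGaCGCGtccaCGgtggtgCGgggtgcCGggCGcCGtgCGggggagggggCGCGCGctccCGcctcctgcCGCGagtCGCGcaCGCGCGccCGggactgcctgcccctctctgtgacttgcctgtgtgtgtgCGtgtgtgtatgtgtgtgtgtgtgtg
GRIK2, chr6:101393458-101393757: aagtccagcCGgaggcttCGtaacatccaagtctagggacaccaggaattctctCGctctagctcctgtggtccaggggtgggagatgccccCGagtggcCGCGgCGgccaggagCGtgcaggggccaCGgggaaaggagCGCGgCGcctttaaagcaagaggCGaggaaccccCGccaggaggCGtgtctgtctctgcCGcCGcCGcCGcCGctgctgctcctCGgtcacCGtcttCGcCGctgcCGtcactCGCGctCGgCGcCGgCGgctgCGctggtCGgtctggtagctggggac
GABRQ, chrX:152637645-152637944: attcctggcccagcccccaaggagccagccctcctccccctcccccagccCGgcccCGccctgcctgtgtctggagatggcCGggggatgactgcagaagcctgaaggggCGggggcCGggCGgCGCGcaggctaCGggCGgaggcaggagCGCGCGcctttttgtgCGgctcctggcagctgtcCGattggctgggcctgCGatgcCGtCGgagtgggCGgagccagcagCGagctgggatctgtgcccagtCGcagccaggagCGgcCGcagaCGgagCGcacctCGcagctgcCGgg
GRIA2 RE1 match, chr4:157220385-157220413: cgaggCGCTGTCCtcGGTGCTGAAaggcc

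These windows held 44, 33 and 27 CG pairs in GRIA2, GRIK2 and GABRQ, against a median of 14 over all 35116 windows of the table. The table holds 3 windows for GRIA2, of which the one downstream of the others is printed, and the upstream ones held 7 and 13 CG pairs. A second GRIK2 window downstream of the printed one held 15, close to the median. The short GRIA2 stretch lies inside that window and shows, in capitals, a match to the left and right parts of the RE1 motif on the minus strand. RE1 is the element bound by REST, a repressor of neuronal genes. These parts were searched on both strands as TTCAGCACC and GGACAGCG and were found in 0.3759% and 1.632% of all windows. Both with the motif's 2-base spacing were found in 2 of the 35116 windows (0.0057%). GABRQ held 5 copies of GGGCGG, the core of the SP motif, which 44.95% of all windows hold at least once. RefSeq windows matched 25 of the 37 members. A match is a description of the letters and not evidence of binding.

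Library totals ranged from 14917644 to 29993652 counts in the knockout table and from 9144150 to 19789622 in the knockdown table. The mRNA of the targeted gene lay below WT in every library in 20 of the 24 clones and overlapped WT in 4 (BCL11A, BCL11B, BCL7A and BRD9). In the knockdown table SMARCA4 mRNA was at 6.34% of WT with the control knockdown in ARID2 knockout cells with SMARCA4 knockdown and at 28.1% in WT with both knockdowns. ARID2 mRNA was at 67.9% in SMARCA4 knockout cells with ARID2 knockdown and at 73.5% in WT with both knockdowns. In ARID2 knockout cells ARID2 mRNA stood at 94.6% with SMARCA4 knockdown and at 78.2% with the control knockdown. At the mRNA level the ARID2 knockdown was shallower than that of SMARCA4.

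Of the 37 members, 16 had enough reads to be tested in the knockout table, and 21 did not. Each clone was compared with WT by edgeR's quasi-likelihood test with Benjamini-Hochberg adjustment over all 16159 genes tested, and a gene was called when the adjusted p was under 0.05 and the log2 fold change was at least 1 in size. Over the 384 pairs of a tested member and a clone, 51 were called higher and 49 lower, against 2.46% and 2.24% of pairs over all genes. The called members numbered 13 of 16, against 25.3% of all genes, and 4 were called in 8 or more clones, against 4.73%. A gene passed the low-count filter if as many libraries as 1 group holds had enough reads. GRIA3 and GABRB2, with few counts in WT, passed only through clones where they were high, so their testing and their calls are not independent. The filter was the same for all genes. GABRA5, GRIA2 and GABRQ were called higher in some clones and lower in others, which 7.04% of all genes were. A called member was found in each of the 24 clones. The median size of the log2 fold change was 0.57 over the tested members and 0.18 over all genes tested. All these comparisons share the same 3 WT libraries. A test of any difference among the 25 groups passed for 15 of the 16 members and for 75.4% of all genes, and GRIK5 was the exception (adjusted p = 0.209).

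**Figure D1:**
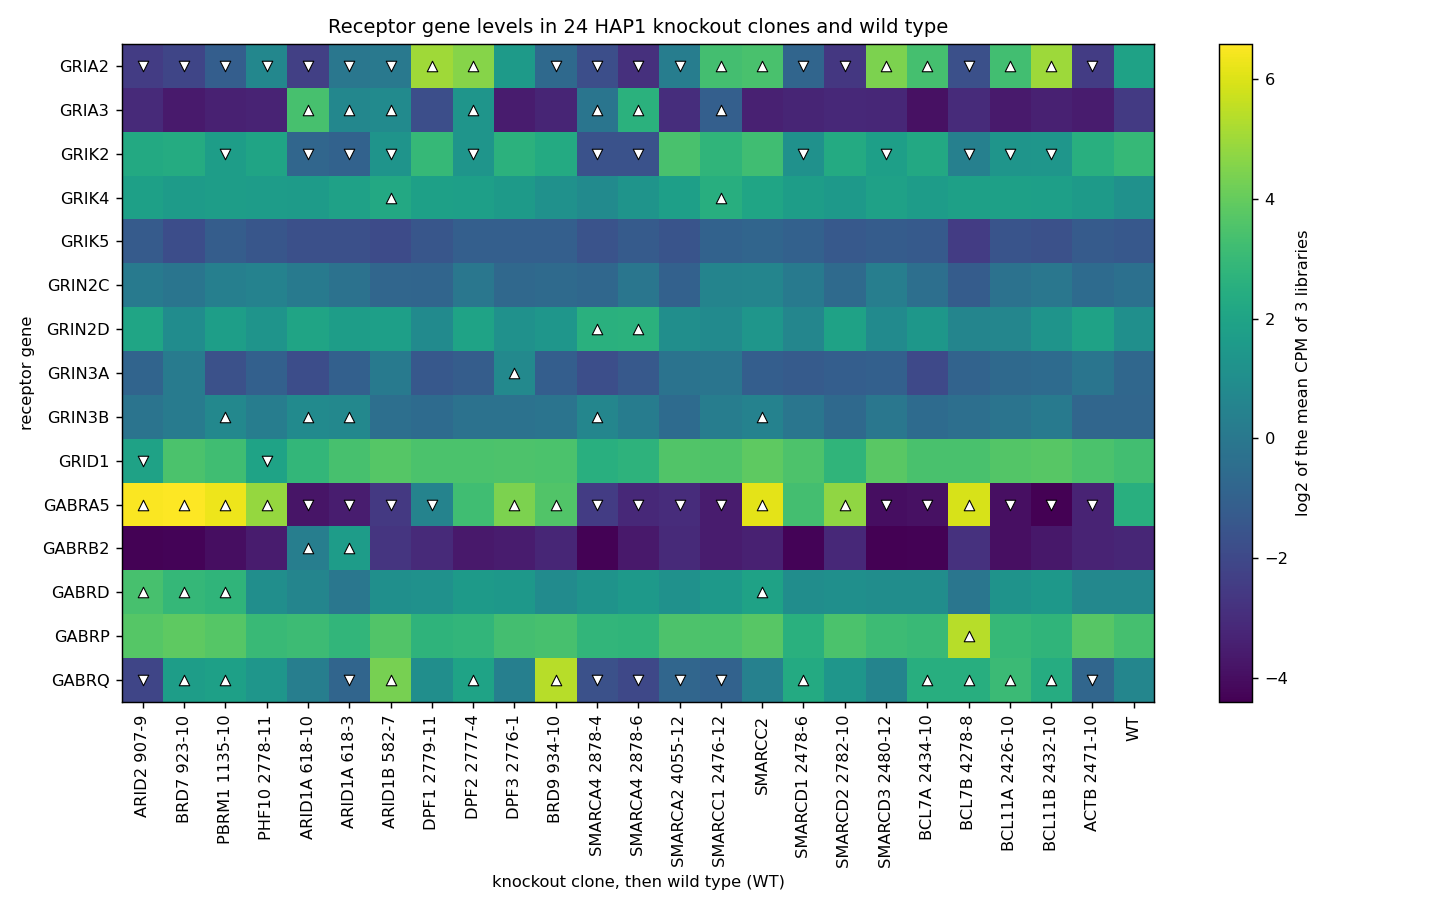
Heat map of 15 of the 16 tested receptor genes (rows) in 24 knockout clones and, in the column at the far right, WT; colour gives the log2 of the mean CPM of 3 libraries. Upward and downward triangles mark the 51 calls above and 49 calls below WT, and GRIA2, GRIK2, GABRA5 and GABRQ carry most of them.

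Among the AMPA receptor genes, GRIA2 changed in almost every clone, in both directions. GRIA2 encodes the subunit that makes AMPA receptors impermeable to calcium. It rose in 8 clones and fell in 15. Its level was 33.7, 35.9 and 26.5 CPM (counts scaled to the library total) in DPF1 2779-11, against 4.43, 3.73 and 3.21 CPM in WT. The libraries did not overlap, and the log2 fold change was 3.08 (SE 0.27, adjusted p = 1.75e-13). BCL11B 2432-10 (31.8 ± 3.43 CPM; SD, n = 3 here and below), DPF2 2777-4 (24.1 ± 2.81 CPM) and SMARCD3 2480-12 (21.4 ± 3.77 CPM) followed, all against 3.79 ± 0.61 CPM in WT. SMARCC2, BCL7A 2434-10, SMARCC1 2476-12 and BCL11A 2426-10 formed a second level between 9.64 and 10.7 CPM, and their SDs of 2.00 to 3.37 CPM exceeded the distances between them.

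At the low end GRIA2 stood close to the limit of detection. SMARCA4 2878-6 had 0.16, 0.15 and 0.091 CPM, which is 2 or 3 counts a library, against 71 to 83 counts a library in WT (adjusted p = 1.35e-13). SMARCD2 2782-10, ARID2 907-9, ACTB 2471-10, ARID1A 618-10, BRD7 923-10, SMARCA4 2878-4 and BCL7B 4278-8 had means between 0.16 and 0.31 CPM. PHF10 2778-11 had the smallest called decrease, at 1.31, 2.35 and 1.12 CPM (log2 fold change -1.23, adjusted p = 0.00361). That call was lost without the third library of every clone (adjusted p = 0.0652), and when the model held PHF10 2778-11 and WT alone (0.0659). DPF3 2776-1 was the only clone not called (3.01 ± 1.56 CPM, log2 fold change -0.33, adjusted p = 0.952), and its libraries overlapped WT.

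GRIA3, another AMPA subunit gene, rose in 7 clones and was called lower in none, with no clone lower at an unadjusted p under 0.05 or by DESeq2 or limma either. It was almost silent in WT, at 0.11, 0.22 and 0.18 CPM or 2 to 5 counts a library. ARID1A 618-10 reached 9.48, 11.5 and 10.6 CPM (log2 fold change 5.85, SE 0.27, adjusted p = 6.51e-26), a fold that rests on few WT counts. SMARCA4 2878-6 followed with 6.13 ± 0.27 CPM, DPF2 2777-4 with 2.48 ± 0.54, ARID1B 582-7 with 1.79 ± 0.32, ARID1A 618-3 with 1.62 ± 0.19 and SMARCA4 2878-4 with 0.90 ± 0.16. These 6 clones lack a canonical subunit or the main ATPase, and their libraries all lay above those of WT. Not all canonical clones shared this: DPF1 2779-11 had 0.29 ± 0.26 CPM and overlapped WT, and DPF3 2776-1 had 0.084 ± 0.027 CPM, below WT in every library and not called (adjusted p = 0.75 and 0.886). The remaining call was SMARCC1 2476-12 at 0.47 ± 0.046 CPM (adjusted p = 0.0262). It was lost without the first or the third WT library (0.106 and 0.0663). Leaving out the second or the third library of every clone lost it too (0.0936 and 0.0517). DESeq2 did not make this call either (0.0519), and the log2 fold change lay between 1.18 and 1.41 in these settings. GRIA1 and GRIA4 did not reach the test, with at most 2 counts in any library.

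GRIK2, which encodes a kainate receptor subunit, fell in 12 clones and was called higher in none, while 1 clone was higher at an unadjusted p under 0.05 and none by DESeq2 or limma. SMARCA4 2878-4 had 0.39, 0.28 and 0.28 CPM and SMARCA4 2878-6 had 0.32, 0.55 and 0.091 CPM, against 8.80, 7.24 and 7.19 CPM in WT. The log2 fold changes were -4.57 (SE 0.34, adjusted p = 3.43e-17) and -4.58 (SE 0.34, adjusted p = 3.67e-17). Both ARID1A clones came next, with 0.64, 0.22 and 0.87 CPM in 618-10 and 0.67, 0.61 and 0.26 CPM in 618-3 (log2 fold changes -3.74 and -3.93). These 4 clones overlapped one another and lay below the other 20. BCL7B 4278-8 stood at 1.32 ± 0.049 CPM, and SMARCD1, ARID1B, DPF2, BCL11A and BCL11B clones lay between 2.22 and 2.59 CPM. PBRM1 1135-10 (3.28 ± 0.85 CPM) and SMARCD3 2480-12 (3.51 ± 0.26 CPM) had the smallest called decreases, at -1.26 and -1.17. The highest mean belonged to SMARCA2 4055-12, at 11.7, 11.4 and 9.45 CPM, which was not called.

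The other kainate genes moved less. GRIK4 was called higher in ARID1B 582-7, at 4.76, 3.53 and 5.77 CPM, and in SMARCC1 2476-12, at 5.88, 4.98 and 5.88 CPM, against 1.85, 2.25 and 2.49 CPM in WT. The log2 fold changes were 1.09 (SE 0.23, adjusted p = 0.000172) and 1.33 (SE 0.23). The ARID1B call dropped under the fold threshold without the first WT library (0.99) or the third library of every clone (0.91). Only these 2 clones were called for GRIK4, against 2.46% of pairs called higher over all genes. All libraries of 21 clones lay above the WT libraries, which these comparisons share, and the share of such clones over all genes was not taken. Against the mean of the other clones, which leaves WT out, GRIK4 had no call. GRIK5 ran between log2 fold changes of -1.05 and 0.50 and was called in no clone, with 1 clone lower at an unadjusted p under 0.05 and none by DESeq2 or limma. GRIK1 and GRIK3 did not reach the test.

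**Figure D2:**
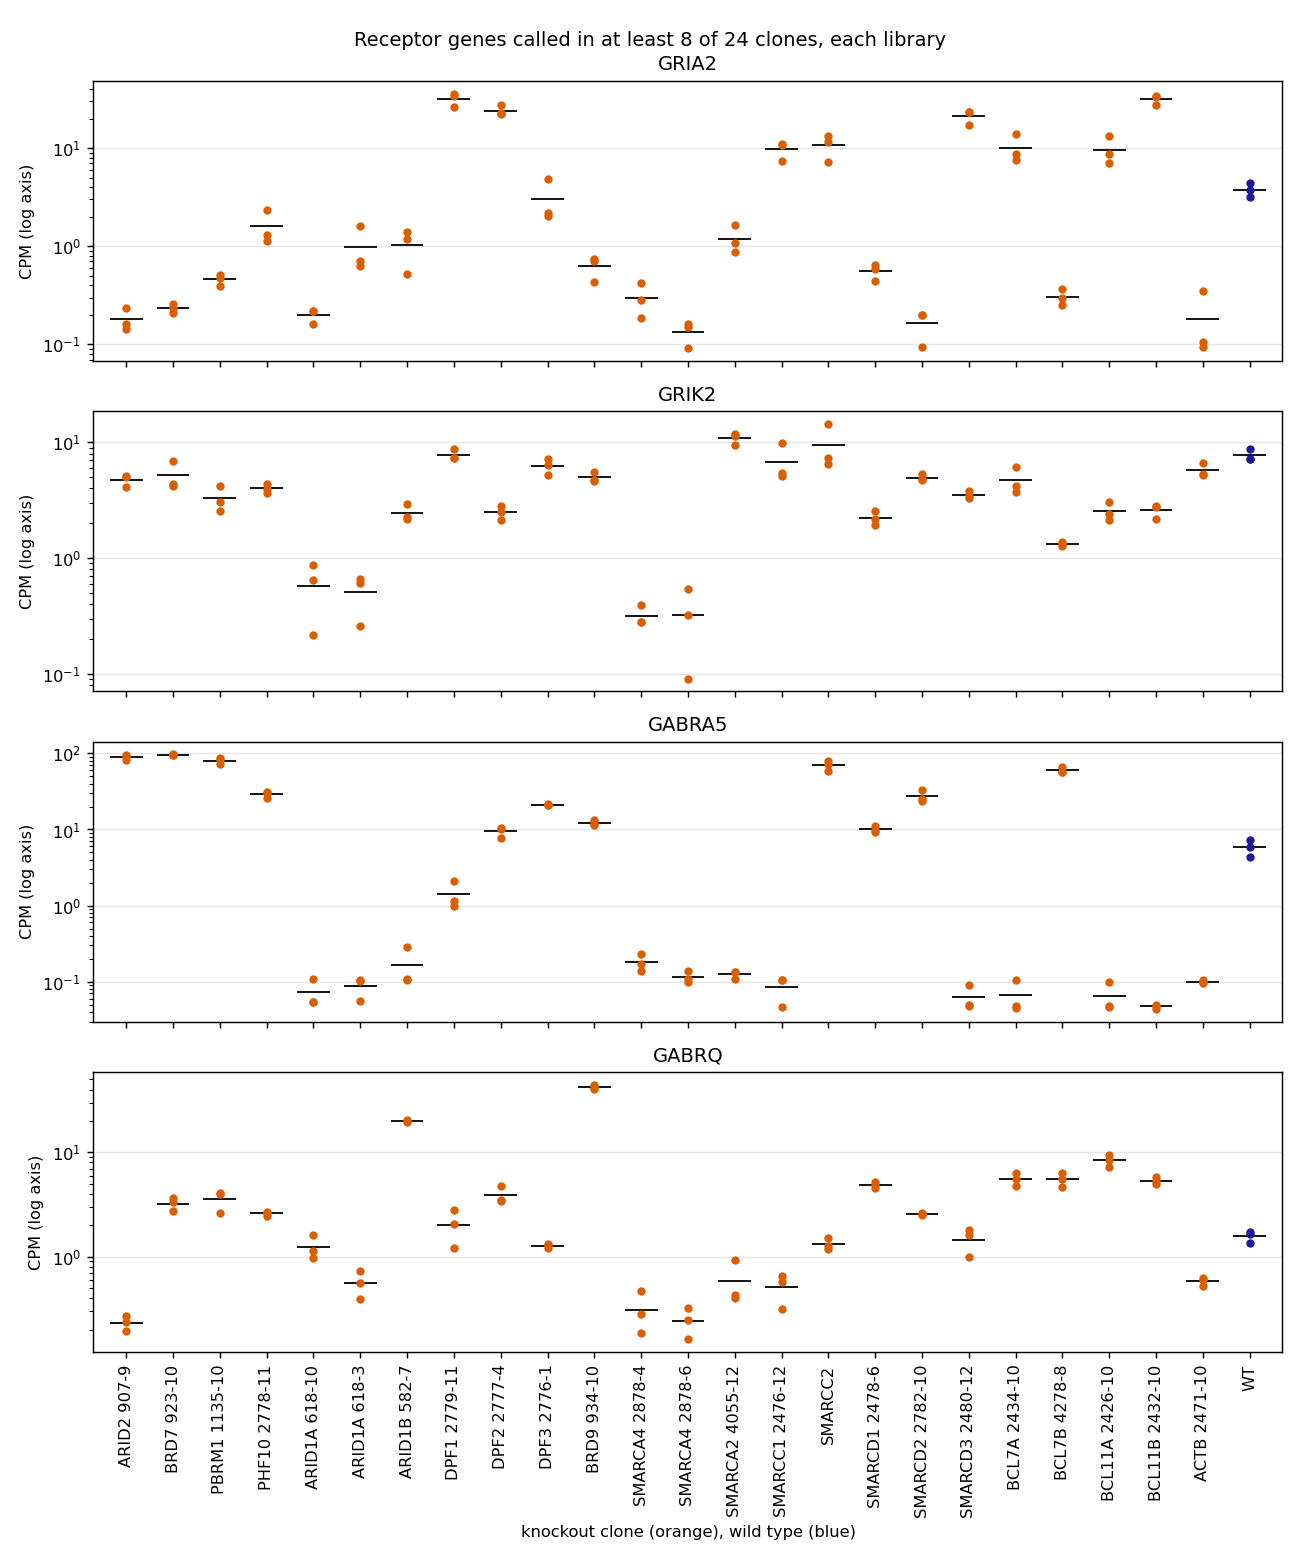
CPM on a log axis of GRIA2, GRIK2, GABRA5 and GABRQ in every library (points) of 24 knockout clones and, at the far right, WT; bars are group means of 3 libraries. GRIA2 means ran between 0.13 and 32.1 CPM, GRIK2 between 0.32 and 10.9, GABRQ between 0.23 and 42.4, and GABRA5 reached 96.0 CPM in BRD7 923-10.

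The NMDA receptor needs the subunit that GRIN1 encodes, and GRIN1 was not tested: its highest library held 9 counts (0.51 CPM). GRIN2A and GRIN2B, the genes of 2 glutamate-binding subunits, had at most 7 and 4 counts in a library. GRIN2D, which encodes another such subunit, rose in both SMARCA4 clones, with 7.25, 4.97 and 5.78 CPM in 2878-4 and 6.31, 6.45 and 5.56 CPM in 2878-6, against 2.24, 1.80 and 2.26 CPM in WT. The log2 fold changes were 1.54 and 1.55 (SE 0.20 each, adjusted p = 2.41e-09 and 2.04e-09), and no other clone was called. ARID2 907-9, ARID1A 618-10, DPF2 2777-4, ACTB 2471-10, SMARCD2 2782-10, ARID1B 582-7, PBRM1 1135-10 and ARID1A 618-3 passed the adjusted p alone. Their log2 fold changes lay between 0.64 and 0.98, and their libraries all lay above those of WT. GRIN2C stayed between -0.85 and 1.00 with no call and an adjusted p of 0.03 for any difference among the groups, with 1 clone higher at an unadjusted p under 0.05 and none by DESeq2 or limma.

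GRIN3A and GRIN3B encode glycine-binding NMDA subunits and were low throughout. GRIN3A had 1.87, 1.42 and 1.80 CPM in DPF3 2776-1, against 0.50, 0.67 and 0.63 CPM in WT (log2 fold change 1.48, SE 0.37, adjusted p = 0.0116). This single call of GRIN3A was lost without the first or the third WT library (adjusted p = 0.0802 and 0.0512). It was also lost without the second or the third library of every clone (0.0555 and 0.065). No decrease of GRIN3A was called, with 4 clones lower at an unadjusted p under 0.05, none by DESeq2 and 3 by limma. GRIN3B was called higher in 5 clones, with the largest change in ARID1A 618-10, at 1.5, 2.17 and 1.74 CPM against 0.67, 0.63 and 0.45 CPM in WT (log2 fold change 1.62, SE 0.36, adjusted p = 0.000471). ARID1A 618-3, PBRM1 1135-10, SMARCA4 2878-4 and SMARCC2 were the others, at log2 fold changes of 1.46, 1.48, 1.42 and 1.26. Without the first library of every clone the SMARCC2 call was lost (0.92, adjusted p = 0.092). Exons of GRIN3B overlap TMEM259 on the opposite strand, and since the sources used here do not state whether counting used the strand, reads of the 2 genes may not have been separated.

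GRID1, a delta receptor gene, had a WT level of 3.30 ± 0.11 (SD, n = 3) in the authors’ deposited log2 TPM, which is scaled by transcript length. It was called lower in 2 clones that lack a PBAF subunit, with 3.27, 4.13 and 3.90 CPM in ARID2 907-9 and 4.30, 3.58 and 3.71 CPM in PHF10 2778-11, against 9.97, 8.90 and 10.2 CPM in WT. The log2 fold changes were -1.35 and -1.32 (SE 0.13 each, adjusted p = 2.54e-12 and 1.22e-11). The other PBAF clones did not share the decrease: the log2 fold change was -0.07 in PBRM1 1135-10, which overlapped WT, and 0.20 in BRD7 923-10. SMARCA4 2878-4 (5.80 ± 0.29 CPM) and SMARCA4 2878-6 (6.59 ± 0.84 CPM) lay below WT in every library and passed the adjusted p but not the fold threshold (log2 fold changes -0.71 and -0.55, adjusted p = 6.8e-06 and 0.000424). The highest level was 14.4 ± 1.13 CPM in SMARCC2 (0.54). An annotated antisense gene overlaps GRID1 exons, so its counts carry the same doubt about strand.

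GABRA5, the gene of the alpha5 subunit of GABA-A receptors, had the widest range of all members. It rose in 9 clones and fell in 13. BRD7 923-10 had 95.4, 95.6 and 96.9 CPM, ARID2 907-9 had 82.8, 93.5 and 95.6 CPM and PBRM1 1135-10 had 86.6, 80.8 and 72.5 CPM, against 7.28, 4.32 and 5.97 CPM in WT. The log2 fold changes were 4.02 (SE 0.15, adjusted p = 9.41e-30), 3.97 (SE 0.15, adjusted p = 2.13e-29) and 3.75 (SE 0.15, adjusted p = 2.7e-28). The fourth clone without a PBAF subunit, PHF10 2778-11, had 29 ± 2.79 CPM. SMARCC2 (69.8 ± 10.5 CPM) and BCL7B 4278-8 (60.1 ± 4.39 CPM) lay between these, and neither lacks a subunit particular to PBAF.

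Further increases of GABRA5 were called in SMARCD2 2782-10 (27.4 ± 4.67 CPM), DPF3 2776-1 (21.2 ± 0.47 CPM) and BRD9 934-10 (12.2 ± 1.13 CPM). The BRD9 log2 fold change of 1.05 fell under the threshold without the second WT library (0.87) or the first library of every clone (0.98). SMARCD1 2478-6 and DPF2 2777-4 lay above WT in every library but under the fold threshold, at 0.75 and 0.68. In DPF1 2779-11 it fell to 1.00, 1.15 and 2.10 CPM, against 5.86 ± 1.49 CPM on average in WT. The 12 remaining clones, which include both ARID1A and both SMARCA4 clones, had means between 0.047 and 0.18 CPM, a few counts a library, and all were called lower. BCL11B 2432-10 stood at the table's minimum of 1 in all 3 libraries, which puts GABRA5 there at least 41.3-fold lower than in WT with 3 counts per library as the floor.

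GABRG3, a gamma subunit gene that lies on chromosome 15 like GABRA5, never passed 0.42 CPM or 8 counts. In BRD7 923-10, where GABRA5 was highest, GABRG3 had 0.21, 0.42 and 0.28 CPM, against 0.11, 0.090 and 0.045 CPM in WT, both too low for the test.

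GABRQ, which encodes the theta subunit of GABA-A receptors, rose in 10 clones and fell in 7. BRD9 934-10 had 44.6, 40.9 and 41.7 CPM, against 1.34, 1.66 and 1.72 CPM in WT (log2 fold change 4.73, SE 0.22, adjusted p = 6.31e-25). ARID1B 582-7 had 20.2, 19.7 and 20.6 CPM (log2 fold change 3.67). BCL11A 2426-10 followed at 8.38 ± 1.08 CPM, and the other 7 called increases lay between 3.23 and 5.55 CPM. The smallest, BRD7 923-10 (log2 fold change 1.01), fell under the threshold without the first WT library or the second library of every clone (0.92 each).

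The largest called decrease of GABRQ was in ARID2 907-9, at 0.19, 0.27 and 0.24 CPM (log2 fold change -2.73, SE 0.32, adjusted p = 8.59e-10). SMARCA4 2878-6 and 2878-4 came close to it, at 0.24 ± 0.079 and 0.31 ± 0.14 CPM. SMARCC1 2476-12, ARID1A 618-3, SMARCA2 4055-12 and ACTB 2471-10 were the others, between 0.51 and 0.59 CPM. In SMARCA2 4055-12 the adjusted p was 0.000385 over all libraries and 0.103 when the model held that clone and WT alone. Clones without a PBAF-specific subunit were called in opposite directions for GABRQ: PBRM1 1135-10 had 3.57 ± 0.80 CPM and BRD7 923-10 had 3.23 ± 0.45 CPM, both called higher than WT, while ARID2 907-9 was called lower. The difference between these clones was not tested.

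GABRD encodes the delta subunit of extrasynaptic GABA-A receptors. It rose in ARID2 907-9, with 10.3, 11.3 and 9.97 CPM against 1.57, 1.21 and 2.21 CPM in WT (log2 fold change 2.67, SE 0.28, adjusted p = 2.9e-11). BRD7 923-10 (7.45 ± 0.45 CPM, log2 fold change 2.14) and PBRM1 1135-10 (6.94 ± 1.00 CPM, 2.02) were called too, and PHF10 2778-11 was not, at 2.03 ± 0.22 CPM. SMARCC2 had a log2 fold change of 1.11 that dropped to 0.92 without the second WT library or the third library of every clone. No decrease was called, with 2 clones lower at an unadjusted p under 0.05 and none by DESeq2 or limma.

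GABRB2, the gene of another beta subunit, rose in the ARID1A clones and in no other. ARID1A 618-10 had 0.86, 1.19 and 1.68 CPM and ARID1A 618-3 had 3.33, 2.74 and 3.48 CPM, against 0.056, 0.22 and 0.045 CPM in WT, where 2 libraries stood at the minimum of 1 (adjusted p = 1.04e-13 and 9.88e-21). All other clone means were at most 0.15 CPM. GABRP, which encodes the pi subunit found mainly outside the brain, rose in BCL7B 4278-8, at 50.3, 48.2 and 27.8 CPM against 8.46, 7.87 and 13.9 CPM in WT (log2 fold change 2.05, SE 0.35). The WT libraries of GABRP were spread widely, and an annotated antisense gene overlaps its exons.

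The 21 untested members included 10 GABA-A genes, the 3 rho genes GABRR1, GABRR2 and GABRR3, and 8 glutamate receptor genes. GABRA2 and GABRB1, the genes of an alpha and a beta subunit, had at most 9 counts in any library. GABRA6, another alpha subunit gene, stood at the minimum of 1 in all 75 libraries. The filter on low counts left these genes out, so differences between clones were not tested for them in the main setting. Without that filter, 6 further calls of members against WT were gained, whose genes are not named here.

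Because WT is 1 clone that every contrast shares, each clone was also compared with the mean of the other 23 clones, without WT. This gave 50 calls higher and 51 lower among the members, against 2.45% and 2.19% of pairs over all genes. Differences from the mean of the other clones balance out over the clones. Values on both sides are therefore built into this comparison for any gene that varies between clones. For GABRA5 there were 11 higher and 12 lower calls, for GRIA2 9 and 11, and for GABRQ 7 and 7. GRIK2, which had only decreases against WT, had 6 higher and 5 lower calls here. The mean GRIK2 level of WT was the fourth highest of the 25 groups. GRIA3 had 6 higher and 10 lower calls. In those 10 clones it was almost silent, at means between 0.066 and 0.11 CPM, and none of them was called lower than WT. GRIK4 and GRIN3B had no call in this comparison.

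The 2 clones of 1 gene were set against each other to see how far a level goes with the knockout. Between the ARID1A clones, 4 of 16 tested members were called, against 1.26% of all genes. GRIA3 and GABRB2 are among these and passed the low-count filter only through clones where they were high. For GABRB2 those were the ARID1A clones themselves, so this share is not independent of the filter. GRIA3 had 10.5 ± 0.99 CPM in ARID1A 618-10 and 1.62 ± 0.19 CPM in ARID1A 618-3 (log2 fold change 2.71, SE 0.20, adjusted p = 9.18e-16). GABRB2 was lower in 618-10 (-1.34, SE 0.20, adjusted p = 3.44e-06), and so was GRIA2, at 0.16, 0.22 and 0.22 CPM in 618-10 and 1.61, 0.71 and 0.62 CPM in 618-3 (-2.24, SE 0.50, adjusted p = 0.0031). GABRQ was higher in 618-10 (1.15, SE 0.29, adjusted p = 0.0123). The GRIA2 call was lost without the first libraries of all clones (adjusted p = 0.349). The GABRQ call was lost without the first (0.212), the second (0.0813) or the third libraries of all clones (0.136).

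Between the SMARCA4 clones only GRIA3 was called, against 1.85% of all genes. Its testing and its call are not independent, since GRIA3 passed the filter only through clones where it was high. It had 0.90, 0.74 and 1.07 CPM in SMARCA4 2878-4 and 6.20, 6.35 and 5.83 CPM in SMARCA4 2878-6 (log2 fold change -2.74, SE 0.22, adjusted p = 2.01e-15). GRIK2 did not differ detectably within either gene: the log2 fold change was 0.19 (SE 0.42) between the ARID1A clones and 0.01 (SE 0.49) between the SMARCA4 clones. These errors leave room for differences of close to 1.

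**Figure D3:**
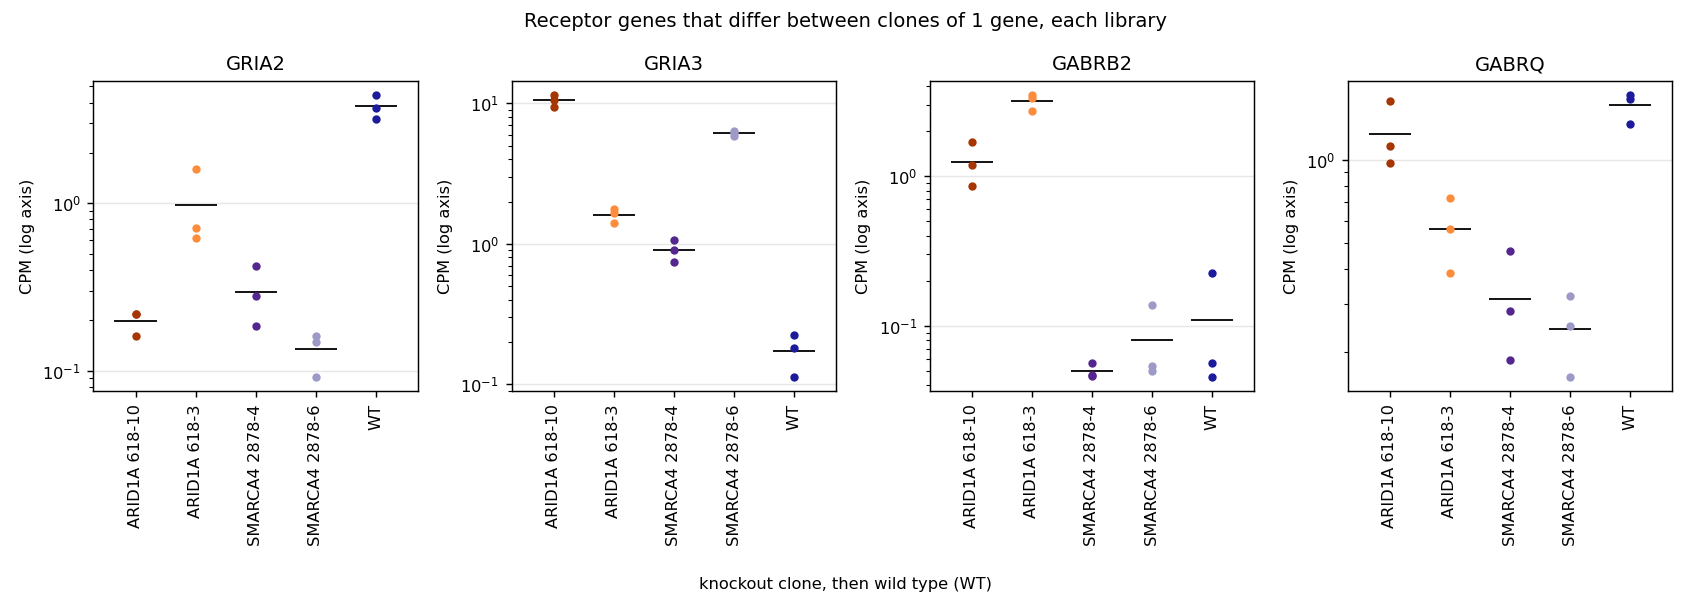
CPM on a log axis of GRIA2, GRIA3, GABRB2 and GABRQ in every library (points) of both ARID1A clones, both SMARCA4 clones and, at the far right, WT, with means as bars. GRIA3 lies at 10.5 and 1.62 CPM in the ARID1A clones and at 0.90 and 6.13 CPM in the SMARCA4 clones, against 0.17 CPM in WT.

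ARID1A and ARID1B are alternative subunits of canonical BAF. The mean of the ARID1A clones differed from ARID1B 582-7 in 7 of 16 tested members, against 8.93% of all genes. That count includes GABRB2 and GRIA3, which passed the low-count filter only through clones where they were high. GABRQ was far lower in the ARID1A clones, at means of 1.24 and 0.56 CPM against 20.2 ± 0.45 CPM in ARID1B 582-7 (log2 fold change -4.60, SE 0.18, adjusted p = 2.37e-29). GRIK2 (-2.19), GRIN3A (-1.49) and GRIA2 (-1.25) were lower too. For GRIA2 the clones were unlike: ARID1A 618-10 had 0.20 ± 0.033 CPM and ARID1A 618-3 had 0.98 ± 0.55 CPM, against 1.04 ± 0.46 CPM in ARID1B 582-7, whose libraries those of 618-3 overlapped. GABRB2 was higher, at 1.25 and 3.19 CPM against 0.15 ± 0.041 CPM in ARID1B 582-7 (adjusted p = 1.02e-17), as were GRIA3 (1.19) and GRIN3B (1.14). The GRIA3 value averages 10.5 CPM in ARID1A 618-10 and 1.62 CPM in ARID1A 618-3, of which the second is not above the 1.79 CPM of ARID1B 582-7. The GRIA2 call was lost without the third libraries of all clones (adjusted p = 0.125) and the GRIN3B call without the second (0.102).

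Among the libraries with a knockdown, 15 members could be tested, with GABRB2 under the filter. Against WT with the control knockdown, the 5 other groups gave 10 calls higher and 13 lower, against 2.52% and 2.7% of pairs over all genes, and all share those 2 WT libraries. Loss of ARID2 again went with high GABRA5. It had 87.1 and 85.9 CPM in ARID2 knockout cells with SMARCA4 knockdown and 141 and 146 CPM in ARID2 knockout cells with the control knockdown, against 15.6 and 19.8 CPM in WT with the control knockdown (log2 fold changes 2.24 and 3.02, SE 0.19 each, adjusted p = 6.54e-05 and 4.42e-05). SMARCA4 knockout cells had at most 0.53 CPM of GABRA5 with either knockdown. WT with both knockdowns had 15 and 15.7 CPM, and overlapped WT with the control knockdown (log2 fold change -0.21, SE 0.18, adjusted p = 0.674).

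GABRD had 14.4 and 20.6 CPM in ARID2 knockout cells with SMARCA4 knockdown and 16.6 and 26.1 CPM with the control knockdown, against 1.98 and 3.79 CPM in WT with the control knockdown (log2 fold changes 2.56 and 2.90, adjusted p = 0.00471 and 0.00718). The call under the control knockdown was lost without the second library of its own group (adjusted p = 0.0703) or the first WT library (0.059).

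GRIA3 was high in both SMARCA4 knockout groups, and only through these did it pass the filter on low counts. It had 9.11 and 9.24 CPM with ARID2 knockdown and 8.29 and 11.5 CPM with the control knockdown, against 0.13 and 0.25 CPM in WT with the control knockdown (adjusted p = 1.95e-05 and 1.66e-05). The labels do not say which SMARCA4 clone these cells came from. WT with both knockdowns had 0.21 and 0.25 CPM of GRIA3 (log2 fold change 0.34, adjusted p = 0.887). GRIN2D rose in SMARCA4 knockout cells with the control knockdown, at 5.63 and 7.54 CPM against 1.79 and 1.90 CPM in WT (log2 fold change 1.79, SE 0.33, adjusted p = 0.00562). With ARID2 knockdown it had 4.02 and 5.23 CPM (1.28, adjusted p = 0.028), a call that was lost without either library of that group or either WT library (adjusted p between 0.0642 and 0.173).

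GRIA2 fell in both groups of each knockout. It had 0.093 and 0.33 CPM in ARID2 knockout cells with SMARCA4 knockdown and 0.87 and 1.51 CPM with the control knockdown, against 6.31 and 8.16 CPM in WT with the control knockdown (adjusted p = 0.000228 and 0.00724). In SMARCA4 knockout cells it had 0.42 and 0.33 CPM with ARID2 knockdown and 0.58 and 0.46 CPM with the control knockdown (adjusted p = 0.000148 and 0.000254). The call for ARID2 knockout with the control knockdown was lost without its first library (adjusted p = 0.102). WT with both knockdowns had 6.05 and 7.98 CPM of GRIA2 and did not differ detectably from WT with the control knockdown (log2 fold change -0.05, SE 0.35, adjusted p = 0.966).

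GRIK2 had 1.02 and 0.67 CPM in ARID2 knockout cells with SMARCA4 knockdown, 0.60 and 0.33 CPM in SMARCA4 knockout cells with ARID2 knockdown and 0.16 and 0.26 CPM in SMARCA4 knockout cells with the control knockdown, against 13.1 and 9.23 CPM in WT with the control knockdown, and all 3 groups were called lower. ARID2 knockout cells with the control knockdown had 6.78 and 8.36 CPM (log2 fold change -0.56, adjusted p = 0.723). In WT with both knockdowns it had 2.95 and 4.50 CPM (-1.59, SE 0.34), which missed the threshold at an adjusted p of 0.0646 and was called by DESeq2 (0.0114). An edgeR model that also held the replicate number called it too (-1.60, adjusted p = 0.0213).

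GABRP and GABRQ gave the weakest calls of the table. GABRP had 5.58 and 4.99 CPM in SMARCA4 knockout cells with ARID2 knockdown and 5.37 and 5.22 CPM with the control knockdown, against 9.37 and 15.9 CPM in WT with the control knockdown (log2 fold changes -1.29 and -1.30, adjusted p = 0.0187 and 0.0235). Each of these calls was lost without either library of its own group or the second WT library, with adjusted p between 0.103 and 0.177. GABRQ was called lower in ARID2 knockout cells with SMARCA4 knockdown, at 0.093 and 0.17 CPM, and in SMARCA4 knockout cells with ARID2 knockdown, at 0.060 and 0.41 CPM, against 0.89 and 1.81 CPM in WT with the control knockdown (adjusted p = 0.0249 and 0.0403). The first GABRQ call was lost without either library of its group or the second WT library (adjusted p between 0.0624 and 0.146), and the other without the first library of its group (0.29) or the second WT library (0.201).

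The knockdown itself was tested inside each knockout. Adding SMARCA4 knockdown to the ARID2 knockout lowered 2 of 15 tested members, against 2.88% of all genes. GRIK2 fell by 3.22 on the log2 scale (SE 0.42, adjusted p = 0.00365), and GRIA2 was called lower at an adjusted p of 0.0426 on 0.093 and 0.33 CPM, against 0.87 and 1.51 CPM with the control knockdown. That GRIA2 call was lost without any 1 of 9 libraries, with adjusted p between 0.0524 and 0.267. GABRA5 passed the test below the fold threshold (log2 fold change -0.79, SE 0.18, adjusted p = 0.0341). Adding ARID2 knockdown to the SMARCA4 knockout called no member, against 0.0205% of all genes, with 1 member at an unadjusted p under 0.05 and none called by DESeq2. Knocking down both genes in WT called no member against the control knockdown, against 0.562% of all genes, with 3 at an unadjusted p under 0.05. DESeq2 called 1, GRIK2. An edgeR model that also held the replicate number called GABRD higher there (log2 fold change 1.00, adjusted p = 0.0335). It called GABRQ and GRIK2 lower (-2.54 and -1.60, adjusted p = 0.0119 and 0.0213).

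**Figure D4:**
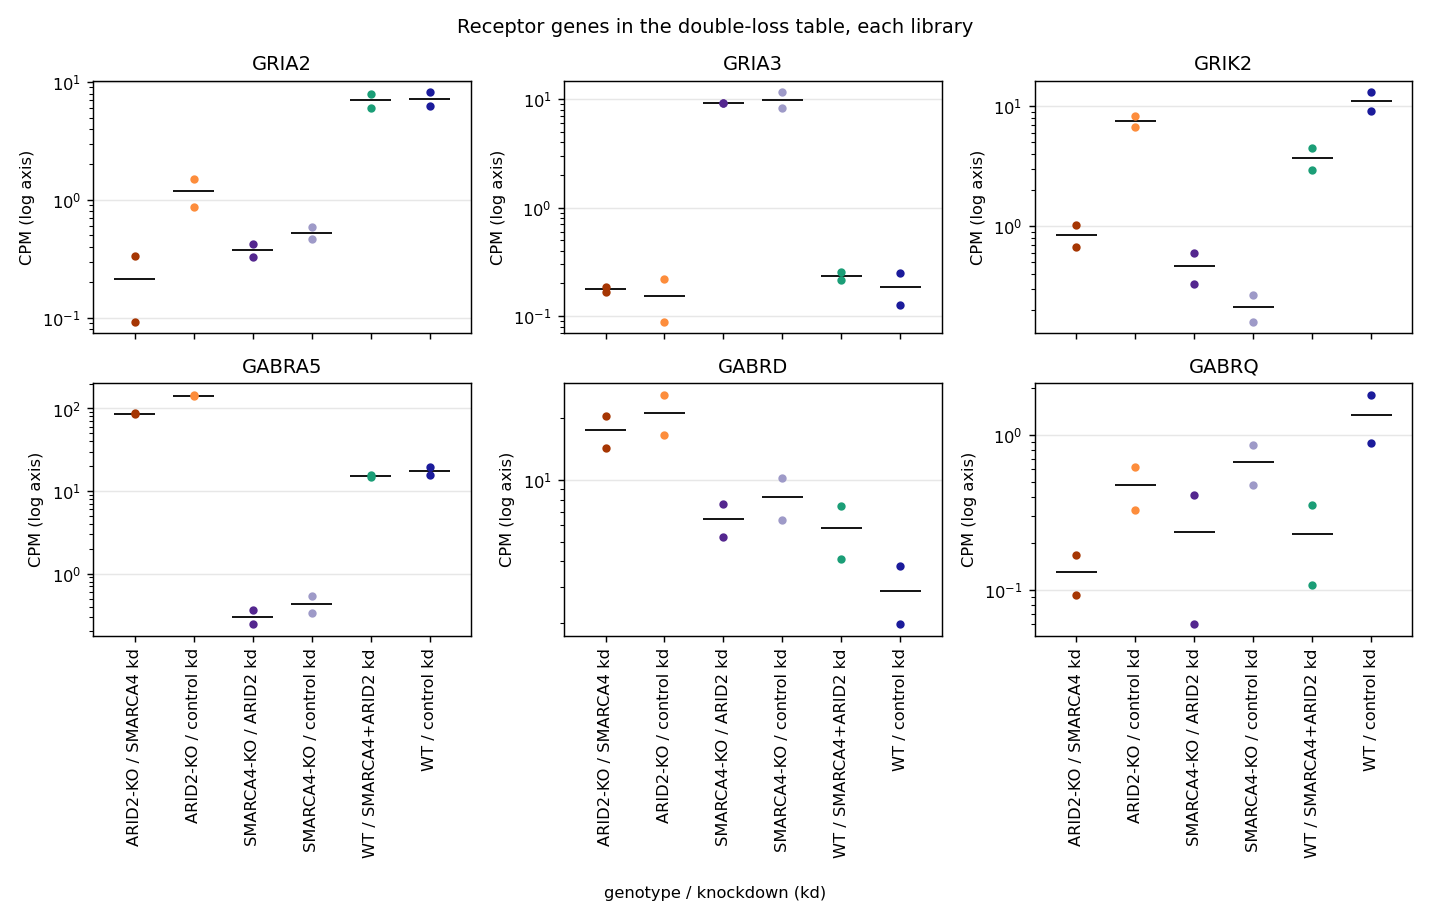
CPM on a log axis of GRIA2, GRIA3, GRIK2, GABRA5, GABRD and GABRQ in every library (points) of the 6 groups with a knockdown, with means as bars and WT with the control knockdown at the far right. GABRA5 lies at 85.9 CPM or above in all ARID2 knockout libraries and at 0.53 CPM or below in all SMARCA4 knockout libraries, and GRIA3 is at 8.29 CPM or above in the SMARCA4 knockout libraries.

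Genes that work with these receptors were read from lists of related genes. Over all genes 2.46% of gene-clone pairs were called higher, 2.24% were called lower, and 25.3% of genes were called in some clone. Of 10 metabotropic receptor genes, which signal through G proteins, 4 were tested and 2 were called, with 4 calls higher and 2 lower over 96 gene-clone pairs (4.17% and 2.08%) and a median log2 fold change of 0.22. GRM8 had its highest mean, 3.17 ± 0.49 CPM, in PBRM1 1135-10 and its lowest, 0.20 ± 0.051 CPM, in SMARCA4 2878-4, against 1.10 ± 0.35 CPM in WT. Of 15 auxiliary subunit genes 9 were tested and 6 called, with 26 calls higher and 2 lower over 216 gene-clone pairs (12.0% and 0.926%). Their median log2 fold change was 0.26, against -0.0061 over all genes.

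CACNG7 and CACNG4 encode transmembrane proteins that accompany AMPA receptors. CACNG7 rose in 7 clones and fell in 1, with 42.8 ± 4.44 CPM in SMARCA4 2878-4 and 0.58 ± 0.24 CPM in SMARCD1 2478-6, against 12.7 ± 1.11 CPM in WT. CACNG4 also rose in 7 clones and fell in 1, with 4.55 ± 0.99 CPM in BRD7 923-10, against 0.47 ± 0.21 CPM in WT.

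Among scaffold and clustering genes, 5 of 19 tested (26.3%) were called, with 12 calls higher and 6 lower over 456 pairs (2.63% and 1.32%) and a median log2 fold change of 0.05. These shares are near or under those over all genes. DLG2, a scaffold of the postsynaptic density, was called higher in 7 clones and reached 16 ± 1.75 CPM in SMARCD3 2480-12, against 1.41 ± 0.13 CPM in WT. All 5 tested transporter genes were called in some clone, with 15 calls higher and 6 lower over 120 pairs (12.5% and 5%) and a median of 0.10. SLC17A7, the vesicular glutamate transporter, was called higher in 7 clones, with 8.82 ± 1.38 CPM in SMARCA4 2878-4 against 1.88 ± 0.455 CPM in WT.

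Of 6 tested enzyme genes 2 were called, with 8 calls higher and 3 lower over 144 pairs (5.56% and 2.08%) and a median of -0.02. GAD1, which makes GABA from glutamate, rose in 5 clones and fell in 3, with 8.27 ± 0.61 CPM in SMARCC1 2476-12 and 0.23 ± 0.037 CPM in BRD9 934-10, against 0.95 ± 0.20 CPM in WT. GLRB, the 1 tested glycine receptor gene of 4, was called higher in 2 clones, with 15 ± 1.90 CPM in ARID1B 582-7 against 5.80 ± 0.86 CPM in WT.

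Markers of other cell types were read beside these values. Of 11 neuron markers in the table, DCX, ELAVL3, ELAVL4, NEFM and STMN2 were under 1 CPM in every group. The summed neuron markers had clone means between 105 CPM in SMARCD1 2478-6 and 251 CPM in ACTB 2471-10, against 164 to 180 CPM in the WT libraries. Over all gene-clone pairs, 25 (14.9%) were called higher and 13 (7.74%) lower for the 7 tested neuron markers, 11 (15.3%) and 22 (30.6%) for 3 astrocyte markers, and 10 (10.4%) and 28 (29.2%) for 4 blood markers. For 4 fibroblast markers they numbered 21 (21.9%) and 19 (19.8%), and for 7 markers of A549, a lung line that the growth protocol also names, 8 (4.76%) and 17 (10.1%). The summed 4 astrocyte markers reached 257 CPM in ARID1A 618-3, against 1.04 to 11.1 CPM in WT, with S100B under 1 CPM in every group. Summed blood markers (8 genes) ran between 27.2 and 118 CPM in clones, against 62.1 to 75.3 CPM in WT, with CD34, GATA1, PTPRC and SPI1 under 1 CPM in every group. Summed fibroblast markers (7 genes) ran between 18.5 and 145 CPM in clones, against 22.4 to 27.2 CPM in WT, with DCN, FAP and LUM under 1 CPM in every group. The A549 markers summed to at most 10.2 CPM in a clone, against 4.77 to 6.60 CPM in WT. The part of these shifts in the receptor values was not tested, and in bulk RNA fewer cells with a transcript and less transcript per cell cannot be told apart.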

How the data were processed

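Poly-A RNA of HAP1 cells was made into stranded libraries and read from a single end, per the labels' protocols. The deposited gene tables of the authors hold estimated counts (expected counts) as whole numbers with a minimum of 1 in every cell. The other deposited table holds the authors' quantile-normalized log2 TPM, of which 71 columns were used, with no SMARCC2 clone among them, for levels per length and 1 alternative. Another 8 columns matched no single labelled sample and were not used. Trimmomatic, Bowtie, Picard and DESeq2 and the builds GRCh37 and hg19 are named per the submitters' processing notes; which tool and annotation produced the counts, and whether strand was used, is not given in the sources used here. Exons of 9 members overlap a gene on the opposite strand.

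Counts were rounded, which left them as they were, and fitted in R 4.3.3 with edgeR 4.0.16: filterByExpr, TMM scaling and a robust quasi-likelihood model fitted to a whole table with group as its factor. Benjamini-Hochberg adjustment of the F-tests ran over 16159 genes (14601 in the knockdown table). A call needs an adjusted p of 0.05 and a log2 fold change of at least 1 in size. CPM is the count scaled to the library total. Low groups are given by levels, because fitted folds near the minimum depend on the prior count. No pair of libraries within a group agreed within sampling noise (chi-square over its degrees of freedom at least 7.45), so none was counted as a repeat.

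Alternatives were DESeq2 1.42.0, limma 3.58.1 on the log2 TPM, other size factors, no filter, 1 subtracted from counts and other thresholds. Further ones were a model of clone and WT alone, a replicate block and libraries left out. WT libraries and knockdown libraries were left out singly, while for the clones 1 replicate number was left out in all clones at once. Library values are printed for members that have a call and whose higher group averages 1 CPM or more, for WT and the clones of the largest called changes. The members, the related lists and the marker lists were chosen with earlier results of these data known. Sequences came from RefSeq tables of GRCh38.p14, which is not the build of the counts; all 37 members were placed in them. Values of some members are not reported here.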

Additional observations from a re-analysis of the deposited data

Results flagged for a closer look

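Clones of the same gene differed in 5 comparisons of a member, each by edgeR's quasi-likelihood test of the difference itself. Between ARID1A 618-10 and ARID1A 618-3 the log2 fold change was 2.71 for GRIA3, -2.24 for GRIA2, -1.34 for GABRB2 and 1.15 for GABRQ. Both ARID1A clones lay above WT for GRIA3 and GABRB2 and below it for GRIA2, so these differences were in the size of the change. For GABRQ, ARID1A 618-3 was called lower than WT at 0.56 ± 0.17 CPM, and ARID1A 618-10 was not, at 1.24 ± 0.34 CPM, against 1.58 ± 0.20 CPM in WT (SD, n = 3). Between SMARCA4 2878-4 and SMARCA4 2878-6 the log2 fold change of GRIA3 was -2.74, with both clones above WT.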

How the results depend on the processing

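Without the fold threshold, calls numbered 81 higher against WT, 92 higher and 77 lower against the other clones, and 11 between the ARID1A clones and ARID1B. With a log2 fold change of at least 2, they numbered 26 higher and 32 lower against WT in 8 members, 32 and 28 against the other clones, 6 higher in the knockdown table, 3 between clones of the same gene and 3 between the ARID1A clones and ARID1B. Without the filter on low counts, 1 call in place of 2 was left for the added knockdown. That setting kept all 100 calls against WT and gained 6, and kept all 23 in the knockdown table and gained 1. With libraries left out as described above, the calls against WT ranged between 49 and 53 higher and between 49 and 51 lower, in 12 to 14 members. Against the other clones they ranged between 48 and 52 higher and between 43 and 51 lower, and 14 or 15 members differed among the groups. In the knockdown table they ranged between 8 and 11 higher and between 9 and 15 lower, and 1 or 2 for the added knockdown. Between clones of the same gene they ranged between 3 and 5, with 3 when the first libraries were left out, and between ARID1A and ARID1B clones between 6 and 7. Of 846 alternative values for 53 named fold changes, 787 kept their direction and their side of the threshold, 59 fell under it and 0 changed sign. DESeq2 kept 99 and limma 96 of the 100 calls against WT, with 0 and 4 gained. In the knockdown table DESeq2 kept 22 of 23 calls and gained 2. The limma setting had no SMARCC2 columns, and DESeq2 gave no test over all groups. With the replicate block, 100 of 100 calls against WT were kept and 1 was gained, and for the knockdown libraries 23 of 23 were kept and 5 gained. The gained ones were GABRD higher in SMARCA4 knockout cells with ARID2 knockdown (log2 fold change 1.16, adjusted p = 0.00449) and with the control knockdown (1.5, 0.00109), and in WT with both knockdowns GABRD higher (1.00, 0.0335) and GABRQ and GRIK2 lower (-2.54 and -1.60, 0.0119 and 0.0213). The main model did not take the numbers as pairing, and the labels name no shared batch. Deviations of same-numbered libraries correlated at a median of -0.0050 among the knockout libraries. Among the knockdown libraries all 30 such pairs correlated positively, at a median of 0.30 and a minimum of 0.091. There 8 of 10 pairs with WT exceeded 0.1. Whether the numbers mark a shared batch in the knockdown libraries was not tested. Groups at 2 or 3 counts a library limit what can be said of the lowest GRIA2 and GABRA5 levels. The causes of these shifts were not tested.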
